A study of Mus musculus with 2 samples.

Results

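In the forebrain of mouse embryos, 8 miRNA genes known from blood cells were followed, 3 of red blood cells (Mir451a, Mir144 and Mir486) and 5 of white blood cells (Mir142b, Mir155, Mir223, Mir146 and Mir150). They were chosen by name, with earlier results of these data known, so their being detected is no result in itself. All 8 are among the 1973 miRNA genes with a row in the count tables. The tissue came from embryos of strain B6NCrl at embryonic day 11.5, with no mutation or treatment named in the labels, and was sequenced as RNA of the length of mature miRNAs. The series held 1 group of 2 libraries, which the labels number as biological replicates. Replicate 1 was made from a pool of 109 embryos and replicate 2 from a separate pool of 88, with both sexes in each and the same donor entry for both. No condition was compared, so the values below describe levels within the tissue and differences between its libraries.

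A miRNA is a short RNA that is cut from a hairpin and guides Argonaute proteins to messenger RNAs, mainly through its seed, the bases from position 2 to position 8. In red cell precursors, GATA1 drives a transcript that carries the hairpins of miR-144 and miR-451a, and miR-451a is cut by AGO2 without Dicer. miR-142 is made in nearly all blood lineages and serves widely as a mark of them, miR-223 is a miRNA of granulocytes and monocytes, miR-155 and miR-146a rise in activated immune cells, and miR-150 is a miRNA of mature lymphocytes. At this stage the vessels of the forebrain carry nucleated red cells of the yolk sac, and macrophage precursors of the microglia have begun to enter the neural tissue.

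The strand and the sequence decide which of these genes the counts can show, so they are given first. Sequences are from RefSeq on GRCm38.p6, the assembly that mm10 names, 5′ to 3′, and 7 of the 8 genes had an entry there. The mature miRNAs below represent the members that held most of the counts and the pair that shares a seed, with the seed in capitals.

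miR-451a: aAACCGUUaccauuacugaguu
miR-144-3p: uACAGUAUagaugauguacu
miR-142a-5p: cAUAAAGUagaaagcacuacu
miR-142a-3p: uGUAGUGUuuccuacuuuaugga
miR-155-5p: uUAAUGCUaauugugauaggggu
miR-223-3p: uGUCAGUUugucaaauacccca
miR-146a-5p: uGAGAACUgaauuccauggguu
miR-146b-5p: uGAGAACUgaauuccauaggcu

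The 13 mature miRNAs listed for the members and for Mir142 had 13 different seeds. Among the 1738 mature miRNAs of the RefSeq table, the seed of miR-146a-5p recurred in miR-146b-5p, and the other 12 seeds were found in no other gene. miR-146a-5p and miR-146b-5p differ at 2 positions counted from the 5′ end, G18A and U21C, with the base of miR-146a-5p first. The gene Mir146b nevertheless had 1 count in replicate 1 and 0 in replicate 2, against 38 and 55 for Mir146.

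Mir142 was seen only through its partner on the other strand. The hairpin of Mir142, on the plus strand of chromosome 11 from 87756864 to 87756927 and in an intron of Mir142hg, had no row of its own. Mir142b (ENSMUSG00000065420.2), annotated on the minus strand from 87756841 to 87756955, covers it whole. The row of Mir142b held 0 counts on its own strand in both libraries and, on the opposite strand, 1255 counts in replicate 1 and 1442 in replicate 2. These opposite-strand counts lie on the strand of Mir142 and are used here for the level of that hairpin. Its sequence is shown because both arms, in capitals, could be their source, and counts per gene do not tell the arms apart.

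Mir142 hairpin: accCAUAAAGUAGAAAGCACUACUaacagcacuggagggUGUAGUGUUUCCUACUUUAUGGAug

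miR-142b is the reverse complement of 20 bases of miR-142a-3p, so the strand is what separates them, and no read of the minus strand was counted. For 6 of the other 7 genes, no read was counted on the opposite strand, and Mir486 had 1 such count in each library.

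**Figure D1:**
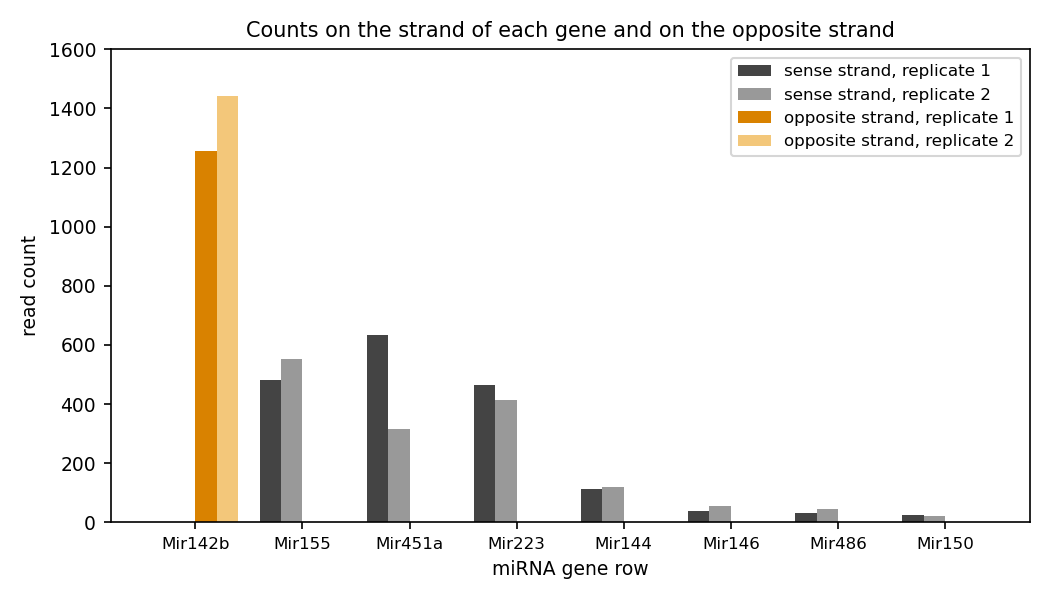
Bars give the read count (vertical axis) of each of the 8 miRNA gene rows (horizontal axis), on the strand of the gene (grey) and on the opposite strand (orange), for replicate 1 (dark) and replicate 2 (light). Mir142b has its 1255 and 1442 counts on the opposite strand only, whereas the other genes were read on their own strand.

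Mir451a and Mir144 stand side by side on the plus strand of chromosome 11, Mir144 (ENSMUSG00000065401.1) from 78073005 to 78073070 and Mir451a (ENSMUSG00000070065.1) from 78073170 to 78073241, with 99 bases between them. Their hairpins are shown because the mature RNAs lie in them differently. miR-451a, in capitals, runs from the 5′ arm into the loop and has no partner listed on the other arm, while Mir144 has a mature RNA on each arm.

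Mir144 hairpin: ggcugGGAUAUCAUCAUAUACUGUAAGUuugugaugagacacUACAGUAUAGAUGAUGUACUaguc
Mir451a hairpin: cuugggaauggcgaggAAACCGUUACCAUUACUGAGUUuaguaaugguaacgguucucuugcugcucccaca

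Mir451b is annotated on the minus strand at the same bases as Mir451a and had no row. The longest stretch that miR-451a shares with the Mir451b hairpin, read 5′ to 3′ on its own strand, is 16 of its 22 bases. No count fell on the minus strand there in either library.

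**Figure D2:**
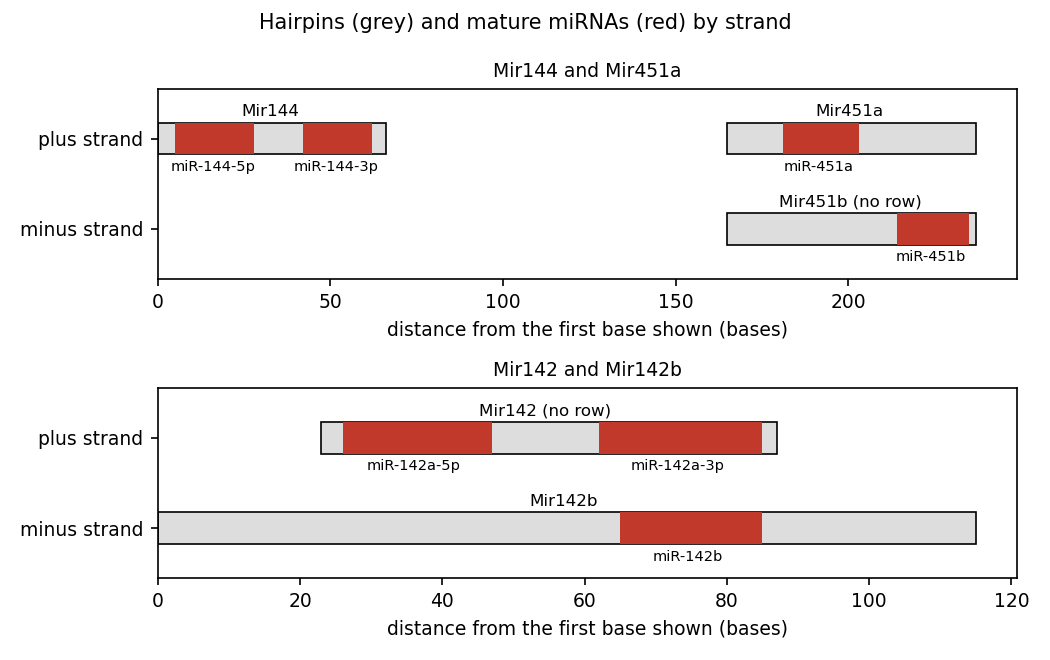
The horizontal axes give the distance in bases from the first base shown, and the rows give the strand, for the Mir144 and Mir451a hairpins (top) and the Mir142 and Mir142b hairpins (bottom). Grey boxes are hairpins and red boxes mature miRNAs, and the red box of miR-142b shares its 20 bases with that of miR-142a-3p.

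Levels are given as CPM, which scale the count of a gene to 1000000 sense counts of all miRNA genes. Replicate 1 held 1281201 such counts and replicate 2 held 1297647. At this depth 3 counts are 2.34 and 2.31 CPM. Each read is taken as a mature miRNA, so counts were not divided by the length of the hairpin. Reads that map to several places, 41.7% and 39.1% of the mapped reads, are not in the gene counts. All 8 members had 2 CPM or more in both libraries, as 425 of the 1973 genes did. Summed over the 8, the level came to 0.233% ± 0.00621 of the sense counts (SD, n = 2, and so for all later ± values). The Mir142b counts in this sum and in other sums are opposite-strand counts, which the total of sense counts does not hold. In bulk tissue, more cells of a type and more RNA per cell cannot be told apart.

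Among the red cell miRNAs, Mir451a had the highest level and the largest distance between the libraries. It stood at 632 counts in replicate 1 (493 CPM) and 317 in replicate 2 (244 CPM), or 369 ± 176 CPM. Mir144, whose miR-144 targets the oxidative stress regulator NRF2, had 113 counts in replicate 1 (88.2 CPM) and 119 in replicate 2 (91.7 CPM), or 89.95 ± 2.48 CPM. So the neighbours of this locus differed in how far apart the libraries stood, Mir451a far and Mir144 hardly. Within replicate 1, Mir451a had 5.59 counts for each count of Mir144 (exact 95% interval 4.57 to 6.89), and within replicate 2 it had 2.66 (2.15 to 3.32). The intervals do not overlap. They cover the counting error of reads and leave out other spread, such as that from PCR copies of a molecule counted as separate reads. Mir451a exceeded Mir144 in both libraries, by 1.94 ± 0.76 on the log2 scale.

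Mir486 (ENSMUSG00000070084.3) lies in an intron of Ank1, the gene of the red cell membrane protein ankyrin, on chromosome 8 from 23142555 to 23142682. It had 32 counts in replicate 1 (24.98 CPM) and 46 in replicate 2 (35.4 CPM), or 30.2 ± 7.40 CPM. Its hairpin shares a stretch of 20 bases with Mir3107, annotated on the other strand of the same place and without a row. Reads that fit both places are left out of gene counts, so its level can be too low by an unknown amount. The 3 red cell genes together reached 606 CPM in the first library and 371 CPM in the second, or 0.0489% ± 0.0166 of the counts, and Mir451a made up most of that sum in both.

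Of the white cell miRNAs, miR-142 led by a wide margin. Read on the opposite strand of Mir142b, it had a level of 979.55 CPM in replicate 1, of 1111 CPM in replicate 2 and in the mean of 1045 ± 93.1 CPM, and was the highest of all 8 members in both libraries. It stood at rank 112 of the 1973 genes by mean level, next to Mir320 (1045 ± 98.8 CPM) and Mir665 (1009.96 ± 45.3 CPM). With it the 5 white cell genes came to 0.184% ± 0.0104 of the sense counts, of which its own opposite-strand counts are no part. As miR-142 is made in nearly all blood lineages, the sum that holds it is not one of white cells alone. Without it the other 4 took 0.0796% ± 0.00109.

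Mir155 (ENSMUSG00000065397.1) is in an exon of Mir155hg on chromosome 16, from 84714140 to 84714204. It had 482 counts in replicate 1 (376 CPM) and 551 in replicate 2 (425 CPM), or 400.4 ± 34.2 CPM. Mir223 (ENSMUSG00000076066.1), on chromosome X from 96242817 to 96242926 and in an exon of the transcript F630028O10Rik, had 466 counts (364 CPM) and 414 (319 CPM), or 341 ± 31.6 CPM. Mir155 lay above Mir223 in both libraries. The ratio of their counts was 1.03 in replicate 1 (exact 95% interval 0.909 to 1.18) and 1.33 in replicate 2 (1.17 to 1.52). In replicate 1 this ratio cannot be told from equal counts.

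In these 2 libraries miR-142 kept a steadier proportion to Mir155 than to Mir223. It had 2.60 counts for each count of Mir155 in replicate 1 (2.34 to 2.90) and 2.62 in replicate 2 (2.37 to 2.89). Against Mir223 it had 2.69 (2.42 to 3.002) and 3.48 (3.12 to 3.89), intervals that do not overlap. All of these intervals cover counting error only, and spread beyond it was not tested for these ratios. No hairpin other than its own shared a stretch of 20 bases with Mir155 or Mir223 among the miRNA genes of the annotation.

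The remaining white cell genes were low. Mir146 (ENSMUSG00000065601.1), the gene of miR-146a on the minus strand of chromosome 11 from 43374397 to 43374461, had 38 counts in replicate 1 (29.7 CPM) and 55 in replicate 2 (42.4 CPM), or 36.02 ± 9.00 CPM. The longest stretch that its hairpin shares with Mir146b is 21 bases, so reads within that stretch could fit both places and be left out, and its level is uncertain. Mir150 (ENSMUSG00000065495.1), on chromosome 7 from 45121757 to 45121821, had 24 counts (18.7 CPM) and 23 (17.7 CPM), or 18.2 ± 0.713 CPM. It was the lowest member and shared no such stretch. At these depths its exact 95% Poisson interval ran from 12.002 to 27.9 CPM in replicate 1 and from 11.2 to 26.6 CPM in replicate 2.

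**Figure D3:**
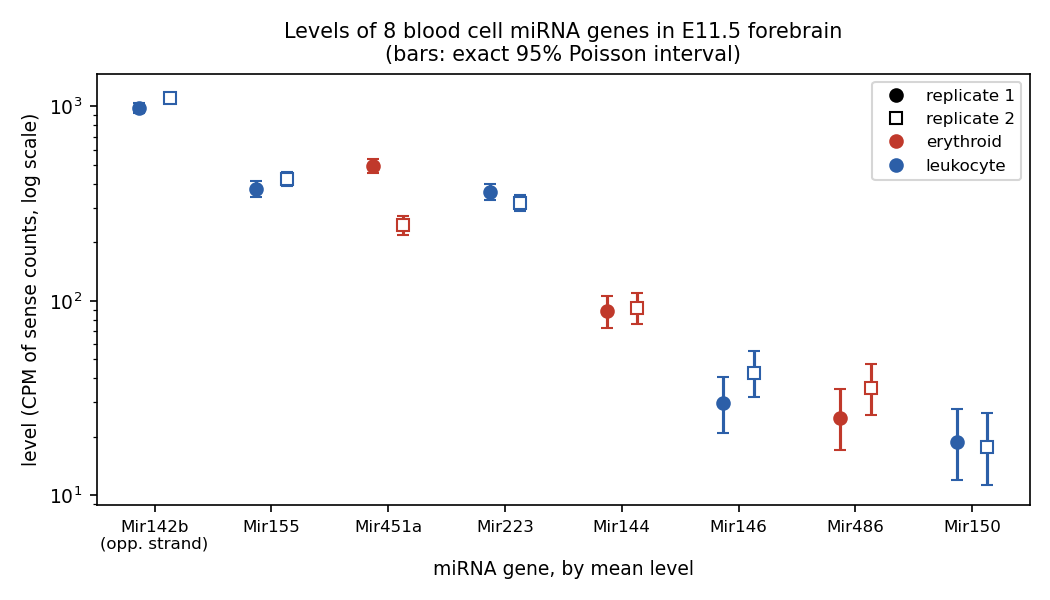
The vertical axis gives the level in CPM on a log scale and the horizontal axis the 8 genes by mean level, with replicate 1 as filled circles, replicate 2 as open squares and bars for the exact 95% Poisson interval of each count. Mir451a is the gene whose libraries stand farthest apart, at 493 and 244 CPM, and Mir142b, read on its opposite strand, is the highest.

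In order of mean level the members were Mir142b (opposite strand), Mir155, Mir451a, Mir223, Mir144, Mir146, Mir486 and Mir150. Mir142b was above Mir155 in both libraries, with ranges that do not overlap, and the same held for Mir223 above Mir144, Mir144 above Mir146 and Mir486 above Mir150. Mir155 was above Mir223, but Mir451a could not be placed among them, because its range over the libraries spans the ranges of both. In replicate 1 Mir451a stood above both, with 1.31 counts for each count of Mir155 (1.16 to 1.48), and in replicate 2 below both, with 0.575 (0.499 to 0.662). Mir146 stood above Mir486 in both libraries, but their ranges overlapped.

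By likeness of level over the 2 libraries, measured as the distance in log2(CPM + 1), the genes nearest to miR-142 were Mir98 (distance 0.10) and Mir200c (0.18). Nearest to Mir223 was Mir493 (0.04) and nearest to Mir155 was Mir669o (0.13). Mir144 had Mir1955 (0.12) and Mir3093 (0.12) beside it. Mir451a had no close companion, and its nearest genes were Mir204 (0.42) and Mir135a-1 (0.42). With 2 libraries this measure reflects level more than pattern.

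Other genes known from blood cells spread over a far wider range than the members. Of 13 further genes, 10 had a row and 9 of these had 2 CPM or more in both libraries. The highest were genes that many tissues express, Mir15a at 9246 ± 184 CPM, Mir21a at 8585 ± 235 CPM, Mir342 at 5787 ± 799 CPM and Mir16-1 at 3418 ± 371 CPM. Near copies were not searched for these further genes, and Mir16-2 has a row of its own. Reads left out because they fit several places could make such levels too low. Mir221 and Mir222, which target the receptor KIT and decline as red cells mature, had 608 ± 30.7 and 263 ± 14.4 CPM, and Mir29a had 119 ± 14.8 CPM. Those tied more closely to myeloid cells were low, with Mir147, a gene induced in activated macrophages, at 20.5 ± 1.46 CPM and Mir511, in the macrophage gene Mrc1, at 5.04 ± 0.503 CPM, on 6 and 7 counts. Mir451b, Mir3107 and Mir142 were the 3 without a row.

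Genes of the vessel wall and of neural cells give the scale of the tissue. Mir126a, of endothelium, had 32462 ± 3025 CPM, and Mir143 and Mir145a, of the muscle around vessels, had 7511 ± 656 and 118 ± 32.9 CPM. Mir126a had 35.3 counts for each count of miR-142 in replicate 1 and 27.3 in replicate 2, and 70.1 and 124 for each count of Mir451a. For the neural label of the tissue, Mir92b had 17079 ± 1908 CPM, Mir149 14979 ± 1706 CPM, Mir137 2536 ± 316 CPM and Mir9-3 479 ± 62.4 CPM, all above Mir451a in the mean. In replicate 1 alone, Mir451a at 493 CPM came close to Mir9-3 at 523 CPM, a gene whose near copies leave its level uncertain. The 3 genes of Mir124a, known from neurons, had 1.56 ± 1.11, 20.5 ± 5.85 and 3.49 ± 0.517 CPM and have such copies too. The last of them, Mir124a-3, had 4 and 5 counts on its own strand and 14 and 8 on the opposite strand. Mir1a-1 and Mir133a-1, known from muscle, had 0 counts in both libraries, but each has a near copy in the genome with 20 bases in common, so their levels are uncertain as well.

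**Figure D4:**
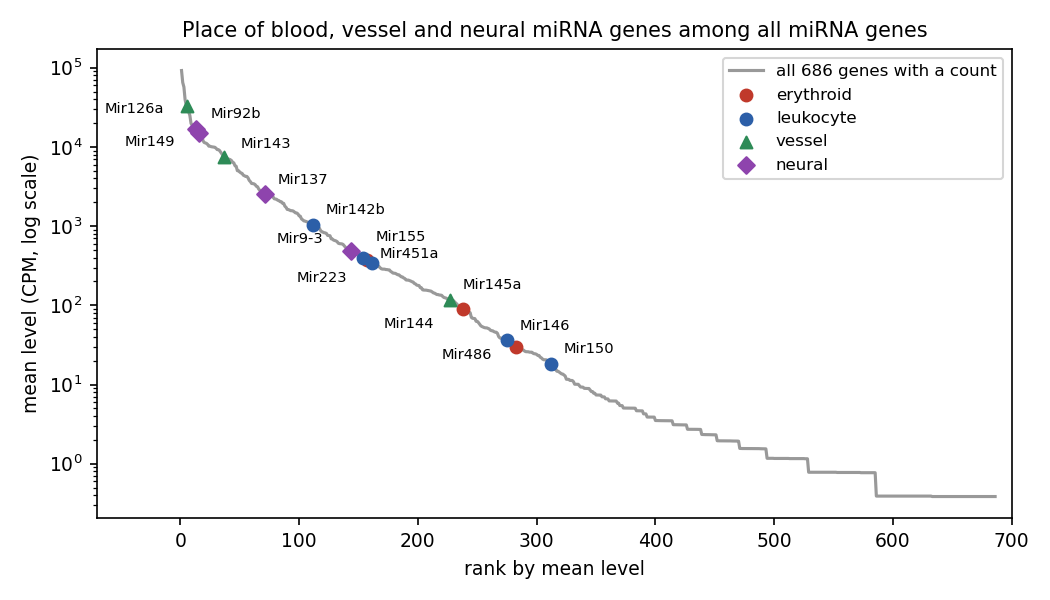
Mean level in CPM (vertical axis, log scale) is drawn against rank for the 686 genes with a count, with red cell, white cell, vessel and neural genes marked. Among the marked genes Mir126a, Mir92b, Mir149 and Mir143 are highest, at ranks 6, 13, 16 and 37, and the members run from rank 112 for Mir142b to rank 312 for Mir150.

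Between the libraries, Mir451a was higher in replicate 1, at 2.02-fold its level in replicate 2. Its log2 ratio of 1.01 had a 95% interval from 0.82 to 1.21, and the exact binomial test, adjusted over 399 genes, gave an adjusted p = 1.93e-24. It was the single member of 8 called at an adjusted p under 0.05 and a 2-fold difference, where 11 of 399 genes (2.76%) were called. This test compares the reads of these libraries, with no allowance for spread beyond counting. The ratio stands at the edge of the 2-fold rule, and with TMM scaling (0.94) or DESeq2 size factors (0.96) the gene was no longer called. In the edgeR exact test with a biological coefficient of variation of 0.2 its adjusted p was 0.78, and 0 of 399 genes (0%) were called, with 13 at an unadjusted p under 0.05.

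The other members had log2 ratios of replicate 1 to replicate 2 on both sides of 0. At an adjusted p under 0.05 with no fold minimum, 2 of 8 members passed, where 114 of 399 genes (28.6%) did. The second was miR-142, read on the opposite strand of Mir142b, at -0.18 (-0.29 to -0.07), for which the exact binomial test gave an adjusted p = 0.0053 and the edgeR exact test an adjusted p of 1. Mir155 stood at -0.17 (-0.35 to 0.0044) and Mir223 at 0.19 (-0.0050 to 0.38), both with adjusted p = 0.15 in the same test. With TMM scaling the adjusted p of Mir155 was 0.027, and with DESeq2 size factors 0.046, so it passed without a fold minimum there. Mir144 stood at -0.06 (-0.44 to 0.33), Mir486 at -0.50 (-1.20 to 0.18), Mir146 at -0.51 (-1.15 to 0.11) and Mir150 at 0.08 (-0.81 to 0.97). For the last 3 the intervals are wide, and differences of this size were within counting error. The median over the 8 members was -0.12, against 0.06 over all 399 tested genes, and 3 of 8 members were above 0, against 64.2% of all genes.

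The distance of Mir451a was large for its depth. Of 73 tested genes with 500 to 2000 counts in total, a range set after its value was seen, 2 were as far apart between the libraries, Mir451a and Mir6236, and the median absolute log2 ratio was 0.11. Over all levels, 14 of the 399 tested genes had a log2 ratio as high as that of Mir451a or higher. Of the 11 genes called, 9 were higher in replicate 1 and 2 lower. Besides Mir451a, the higher ones were Mir10a, Mir10b, Mir122, Mir6236, Gm23935, Mir6240, Gm26117 and Gm24572. Among these, Mir122 alone is on one of the lists. The lower ones were Mir211 and Mir7666. Mir10a and Mir10b, of the Hox clusters (chosen after seeing their values), had 154 and 85 counts in replicate 1 and 54 and 33 in replicate 2, log2 ratios of 1.52 and 1.37. Mir196b, Mir615 and Mir196a-2, also of the Hox clusters, were not called. In that order they had 11, 15 and 4 counts in replicate 1 and 7, 11 and 4 in replicate 2, so the test had little power for them. Mir122, the only gene of the liver list, had 27 counts in replicate 1 (21.1 CPM) and 8 in replicate 2 (6.17 CPM), and was called too. Mir208b, of the heart, had 245 counts (191 CPM) and 125 (96.3 CPM), and passed the adjusted p but not the fold, at a log2 ratio of 0.99. Other genes of the heart, outside the lists, were not alike. Mir208a, with 51 and 27 counts, passed the adjusted p but not the fold (log2 ratio 0.92). Mir499, with 19 and 18 counts, passed neither (0.09). Of the other 3 genes on the muscle list, which holds Mir208b, Mir206 had 9 and 4 counts and did not pass (adjusted p = 0.35 in the exact binomial test). Mir1a-1 and Mir133a-1 were at 0. The muscle list summed to 198 CPM in the first library and 99.4 CPM in the second, nearly all of it Mir208b, so the sum repeats that gene. The liver and muscle lists, like the others, were chosen with earlier results of these data known. The vessel genes differed less, with log2 ratios of 0.19 (0.17 to 0.21) for Mir126a, 0.18 (0.14 to 0.22) for Mir143 and 0.57 (0.24 to 0.92) for Mir145a. The part of other tissue or of blood volume in the level of Mir451a was not tested.

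**Figure D5:**
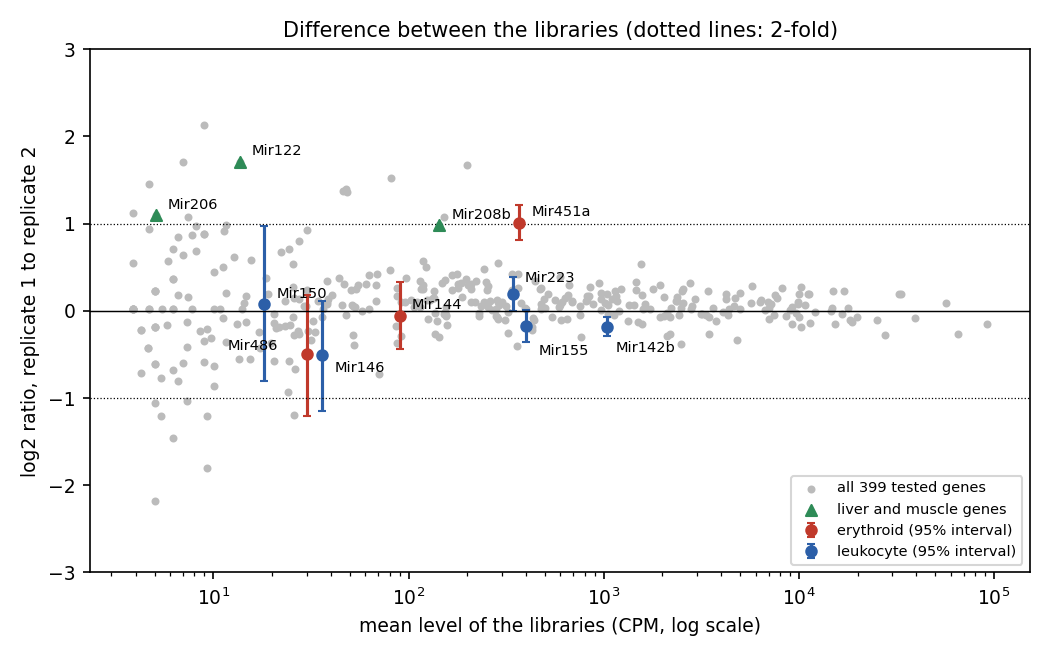
The log2 ratio of replicate 1 to replicate 2 (vertical axis) is drawn against the mean level in CPM (horizontal axis, log scale) for the 399 tested genes in grey, with members in red and blue, their 95% intervals, and liver and muscle genes as green triangles. Mir451a lies at 1.01, away from Mir144 at -0.06, and Mir208b and Mir122 lie at 0.99 and 1.71.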

How the data were processed

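MicroRNA-seq of E11.5 mouse forebrain was deposited as 1 table for each of 2 libraries. Per the labels and the deposited file descriptions, the counts are on the mm10 build and the GENCODE M4 annotation. Neither aligner nor counter is named in the sources used here. The deposited values are raw counts for both strands together, the sense strand and the opposite strand. Strand counts added up to the unstranded count for all 1973 genes. The 4 summary rows were kept out of totals and tests. Of the gene identifiers, 1894 matched GENCODE M21 on GRCm38, which gave symbols, positions and hairpin sequences for the search for shared stretches of 20 bases.

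CPM were computed from sense counts, with the opposite strand for Mir142b. The libraries were compared by an exact binomial test, two-sided, for genes with 10 counts or more, Benjamini-Hochberg adjusted over 399 genes, called at 0.05 and 2-fold, with 0.5 counts added for log2 ratios. Exact Clopper-Pearson intervals are given for ratios. The binomial test was checked on simulated counts with counting error only, so the check does not cover spread beyond counting. The text names the 8 members, genes of fixed lists for blood, vessel, neural, liver and muscle, the genes nearest in level, and neighbours within 10 kb. The called genes outside the members and lists, Mir6236, Mir10a and Mir10b among them, were named after their values were seen. So were Mir196a-2, Mir196b, Mir615, Mir208a and Mir499. The members and lists were chosen with earlier results of these data known. Tools were Python 3.11.15, pandas 2.3.3, numpy 2.4.6, scipy 1.17.1, R 4.3.3, edgeR 4.0.16 and DESeq2 1.42.0. Alternatives covered scaling, filters, pseudocount, strand column, denominator, the edgeR exact test and each library left out.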

Additional observations from a re-analysis of the deposited data

How the results depend on the processing

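No paired analysis was possible because the series holds 1 group. The log2 ratios of the 8 members kept their direction under all 7 alternatives (6 for Mir150, which had too few counts for the filter of 50). Mir451a ranged from 0.94 to 1.01, with adjusted p from 1.49e-24 to 0.78. The number of members called fell from 1 to 0 with TMM scaling, with DESeq2 size factors and in the edgeR exact test, in which the number of genes called fell from 11 to 0. With adjusted p alone, 114 genes and 2 members were called. Filters and the unstranded column gave the same number of members. TMM scaling moved the median log2 ratio of all genes from 0.06 to -0.01. Scaled to all mapped reads, levels and shares are lower by construction, with 0.0233% for the erythroid and 0.0891% for the leukocyte members. Leaving out each library gave erythroid shares of 0.0371% to 0.0606%, leukocyte shares of 0.177% to 0.192%, and log2 ratios of Mir451a to Mir144 of 1.41 to 2.48. Depth limits Mir150, Mir486 and Mir146, with 23 to 55 counts in a library.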
